A study of Homo sapiens with 15 samples.

Results

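The enzymes and regulators of sterol and fatty acid synthesis were followed as a module of 45 genes through androgen stimulation of LNCaP, a human prostate cancer cell line that responds to androgen. Members were chosen by their place in the pathway, with earlier results of these data known. Loops were assigned to a member where a 1 kb anchor lay within or touched a window around its canonical transcription start site. The window reached 2.5 kb to each side of the start (Gencode on GRCh37, the same assembly as hg19). All 45 members held at least 1 loop, 1534 loops in all of the 505995 different loops in the data. Among all 19553 protein-coding promoters 16012 held a loop.

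HiChIP, which ligates and sequences DNA fragments that lie close together in chromatin carrying a chosen histone mark, was done for H3K27ac, a mark of active promoters and enhancers, and for H3K4me3, a mark of promoters. Cells were kept for 3 days in phenol red-free medium with charcoal-stripped serum, which removes steroids, and then received ethanol (0m) or 10 nM of the androgen dihydrotestosterone (DHT), with collection after 30m, 4h, 16h and 72h. Series of 5 values below follow this order of times. All groups are of a single line, and every DHT group is set against the same 0m table. The data hold 1 contact value per loop, mark and time point although 2 H3K27ac samples and 1 H3K4me3 sample are labelled for each time, so no difference has a replicate check and no p-value is given.

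Sterol-regulatory element binding proteins (SREBPs) are membrane-held transcription factors that drive these genes. When sterols are low, SCAP escorts SREBPs from the endoplasmic reticulum to the Golgi, where they are cut and released to the nucleus, and INSIG proteins hold the complex back when sterols are plentiful. The targets run from acetyl-CoA through mevalonate and squalene to cholesterol, and through malonyl-CoA and palmitate to longer, desaturated and esterified fatty acids. Prostate cancer cells are known for high lipid synthesis, which androgens raise in LNCaP.

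SREBPs bind sterol regulatory elements, commonly beside a CCAAT box bound by NF-Y, and the sequences below show a match to the consensus element and the boxes of members described later. The searched element was TCACNCCAC and the box CCAAT, on both strands, in the 250 bases before and 50 bases after the start. The element was found in 2 of 45 members (4.44%) against 1.22% of 19533 coding promoters, and the box in 26 of 45 (57.8%) against 36.1%. A match of letters is a description and says nothing of binding in these cells. The stretch below lies on the plus strand of GRCh37 at chr22:42228936-42229024, upstream of the start of SREBF2, with the element in capitals.
SREBF2: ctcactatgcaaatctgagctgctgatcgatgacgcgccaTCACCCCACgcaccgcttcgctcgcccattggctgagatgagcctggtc

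The element started 133 bases before the start of SREBF2, the gene of the SREBP that mainly serves cholesterol synthesis. The next stretches, all on plus strands, lie at chrX:151999364-151999542, chr2:223725664-223725698 and chr7:155089403-155089437 of GRCh37 and show in capitals the CCAAT boxes, read on either strand, of 3 members whose contact differed widely from 0m. NSDHL held 5 boxes, of which a pair overlaps, and ACSL3 and INSIG1 held 1 each.
NSDHL: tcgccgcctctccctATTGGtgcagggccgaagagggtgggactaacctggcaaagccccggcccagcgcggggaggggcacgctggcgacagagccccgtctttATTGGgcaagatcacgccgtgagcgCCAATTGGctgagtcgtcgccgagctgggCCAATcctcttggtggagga
ACSL3: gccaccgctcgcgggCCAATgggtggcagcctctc
INSIG1: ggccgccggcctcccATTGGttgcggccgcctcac

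Contact values are read pairs that the authors scaled by TMM among the time points of a mark, and 1 read pair was worth between 0.079 and 0.342 units depending on the table. Between 2153262 and 10675614 read pairs lay in loops per table, with the H3K4me3 table of 4h the deepest. Intervals given below are exact 95% intervals of the ratio of read pairs and cover counting error only. The promoters of 8 of 8 luminal prostate genes such as KLK3 held loops, with a median summed H3K27ac contact of 124 at 0m, while 4 of 8 markers of other cell types held any, with a median of 0.588. The promoters of the basal cell genes KRT5, KRT14 and TP63 and of PTPRC, a leukocyte gene, held none, while COL1A1 of fibroblasts, VIM of mesenchymal cells, CD3E of T cells and ALB of hepatocytes had summed H3K27ac contacts of 24.4, 13.5, 8.82 and 1.18.

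The loops of the members resembled those of coding promoters at large in kind. Of the 1534 loops, 315 were called for H3K27ac only, 883 for H3K4me3 only and 336 for both, shares of 20.5%, 57.6% and 21.9% beside 21.6%, 59.7% and 18.7% of all promoter loops. The median length was 220 kb beside 225 kb. Another coding promoter lay at the far end of 352 loops, and the only loop that joined a pair of members ran 15 kb between FADS1 and FADS2, the neighbouring desaturase genes. Members held between 1 loop (ACACB) and 91 loops (GPAM), with a median of 33.

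Before DHT, contact differed widely between members. In H3K27ac the highest summed contact belonged to SREBF1, the gene of the SREBP that mainly serves fatty acid synthesis, with 261 over 65 loops. FASN, the fatty acid synthase, followed with 136 over only 5 loops, then the desaturase FADS2 with 123, the sterol reductase TM7SF2 with 98.4 and SREBF2 with 97.6. The lowest values were 9.40 for the elongase ELOVL7, 2.35 for the acyl-CoA synthetase ACSL4 and 0.588 for ACACB, the acetyl-CoA carboxylase of the mitochondrial membrane. In H3K4me3 the order was another one, with FADS2 at 211, the mevalonate decarboxylase MVD at 187, the demethylase CYP51A1 at 181, TM7SF2 at 156 and the elongase ELOVL1 at 135, and with SOAT1 (6.77), ACSL4 (6.49) and ACACB (1.69) at the low end. The marks were scaled apart, so their levels share no common scale, and with that limit 8 members (17.8%, beside 20.8% of all promoters with a loop) had a larger value in H3K27ac than in H3K4me3 at 0m, namely SREBF1, PMVK, HSD17B7, SOAT1, FASN, ME1, ACSL3 and LPIN1.

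**Figure D1:**
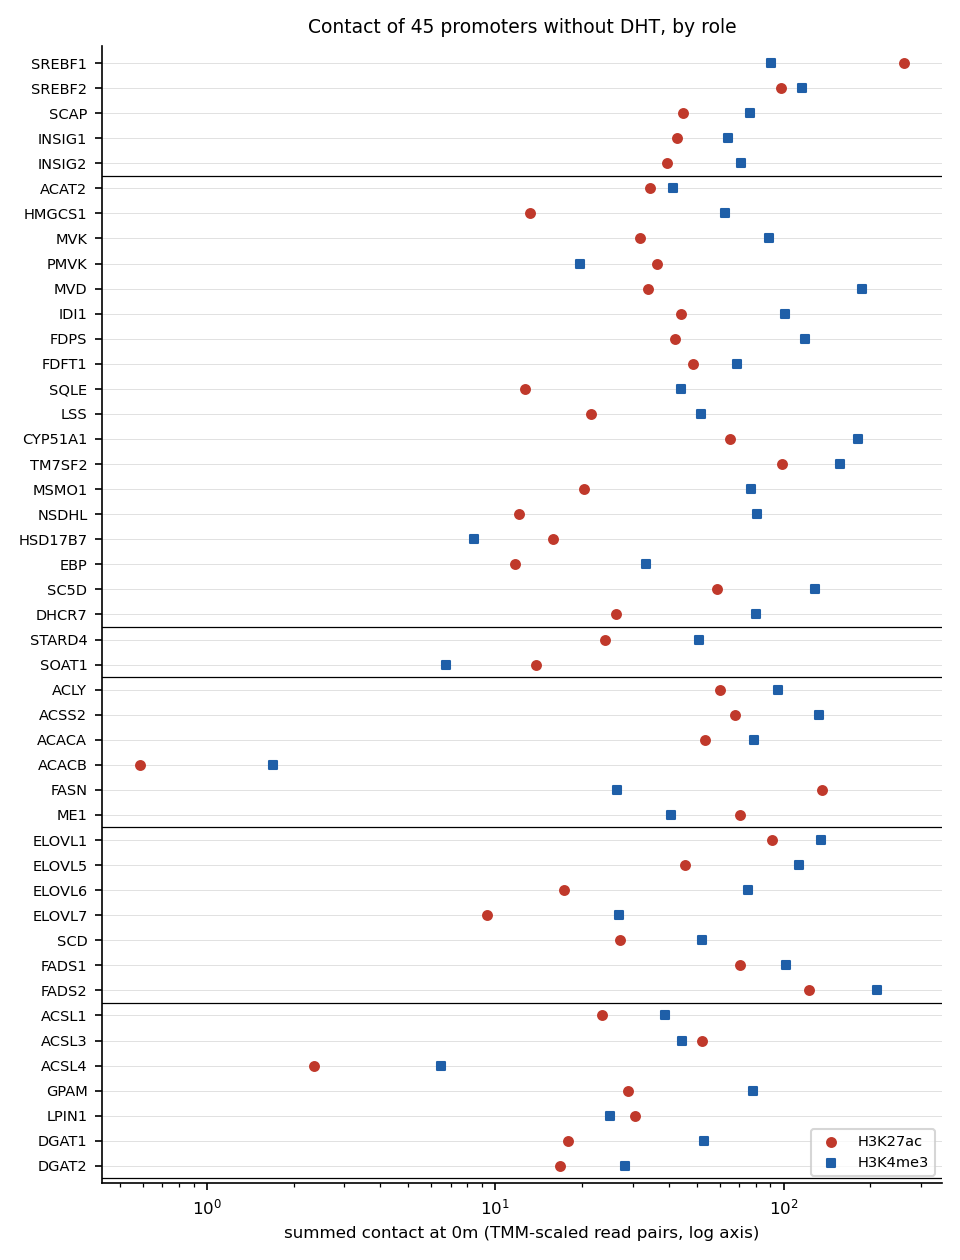
Summed contact of the loops of each of the 45 promoters at 0m on a log axis (TMM-scaled read pairs), H3K27ac as red circles and H3K4me3 as blue squares, with horizontal lines between the roles. SREBF1 (261) and FASN (136) lead in H3K27ac, and ACACB is lowest in both marks.

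The first question was whether contact of the module as a whole changed with androgen. Mean H3K27ac contact over the 1534 loops was 1.35, 1.72, 1.37, 1.64 and 1.55 from 0m to 72h. It was above the 0m mean by a log2 change of 0.35 (95% interval 0.31 to 0.39) at 30m, 0.28 (0.24 to 0.32) at 16h and 0.20 (0.15 to 0.24) at 72h. The 4h change of 0.02 had an interval from -0.03 to 0.06. All loops together changed by 0.09, 0.07, 0.25 and 0.17 in time order, so the module lay above all loops at 30m, slightly below them at 4h and within its counting error of them later. The median over all tested promoters, however, was itself 0.26 at 30m.

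Mean H3K4me3 contact was 2.17, 2.18, 2.59, 2.32 and 1.79 from 0m to 72h. It was highest at 4h and lowest at 72h, with log2 changes of 0.01, 0.26 (0.23 to 0.28), 0.10 (0.07 to 0.13) and -0.28 (-0.31 to -0.24). All loops changed by 0.02, 0.22, 0.14 and -0.13, the same order of time points. These changes rest on the scaling between tables: with equal read-pair totals per table the later 2 H3K27ac changes were 0.03 and 0.02, and the H3K4me3 change at 16h turned to -0.04. Members are therefore described below relative to other promoters.

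**Figure D2:**
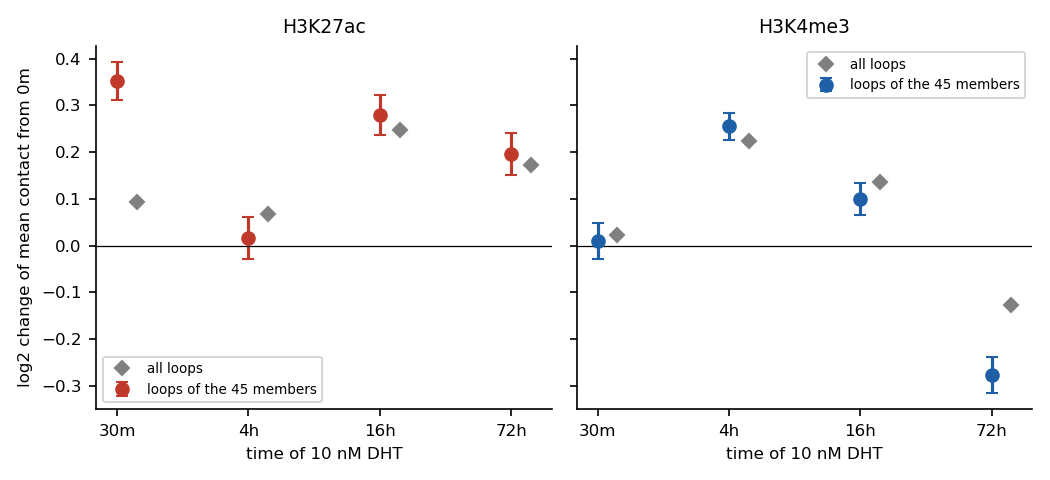
Log2 change of mean contact from 0m for the 1534 loops of the 45 members (circles, bars are exact 95% counting intervals) and for all loops (grey diamonds) at each time of 10 nM DHT, H3K27ac left and H3K4me3 right. The members lie above all loops at 30m in H3K27ac (0.35 against 0.09) and below them at 72h in H3K4me3 (-0.28 against -0.13), and in H3K4me3 both are highest at 4h and lowest at 72h.

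The relative change of a promoter is its log2 change from 0m minus the median change of the coding promoters in the same of 10 bins of mean contact, for promoters with at least 100 read pairs over the 5 time points of a mark. It does not depend on the scaling between tables. Of the members, 43 were measured in H3K27ac (not ACACB and ACSL4) and 44 in H3K4me3 (not ACACB), among 12245 and 12961 promoters. A promoter was called higher or lower at a relative change of at least 0.5 in either direction. Medians over the members were 0.00, -0.03, 0.08 and -0.01 in H3K27ac and -0.03, 0.01, 0.00 and -0.13 in H3K4me3. At 72h in H3K4me3 16 of 44 members lay above the median of their bin, beside 6476 of 12961 promoters. At the earlier times 20, 22 and 22 members did, and in H3K27ac 20, 18, 25 and 21 of 43. By role the 16 were 2 of 5 SREBP regulators and 5 of 18 genes of mevalonate and cholesterol synthesis. The rest were 1 of 2 of sterol transport and esterification, 0 of 5 measured from acetyl-CoA to palmitate, and 3 of 7 of elongation and desaturation. Of acyl-CoA activation and glycerolipid synthesis there were 5 of 7. The quartiles of the relative change over all promoters at that time were -0.17 and 0.17.

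In H3K27ac 2 members (EBP and NSDHL) were called higher at 30m where 7.52% of promoters were, and 2 (PMVK and SOAT1) lower where 11.4% were. At 4h NSDHL alone was called higher, beside 5.28% of promoters, and no member lower, beside 2.85%. At 16h 4 members (ACSL3, INSIG2, ME1 and NSDHL) were higher, which is 9.30% of those measured beside 13.9%, and 6 (DGAT1, DGAT2, GPAM, INSIG1, PMVK and SOAT1) were lower, which is 14.0% beside 16.5%. At 72h 6 members (ACSL3, FDPS, HMGCS1, INSIG2, LPIN1 and NSDHL) were higher beside 13.1%, and 9 (DGAT1, DGAT2, ELOVL1, ELOVL7, FASN, FDFT1, INSIG1, PMVK and SOAT1) lower beside 15.0%. These shares lie near or below those of promoters at large, apart from 20.9% lower at 72h.

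In H3K4me3 LPIN1 was called higher and LSS lower at 30m, where 2.31% and 4.78% of promoters were. At 4h 2 members (ACSL3 and SREBF2) were higher beside 7.54%, and 3 (FASN, LSS and MSMO1) lower beside 9.26%. At 16h 3 members (ACSL3, ELOVL7 and SOAT1), 6.82% of those measured, were higher beside 3.27%, and FASN lower beside 3.40%. At 72h ACSL4 was higher and FASN and LSS lower, beside 4.13% in each direction. No member was called in both directions within a mark, while 1.59% of promoters were in H3K27ac and 0.818% in H3K4me3. Of the 44 members measured in at least 1 mark, 22 were called in neither mark at any time, beside 42.2% of 13222 promoters. These were SREBF1 and SCAP, 10 genes of mevalonate and cholesterol synthesis (ACAT2, IDI1, MVK, MVD, SQLE, CYP51A1, TM7SF2, HSD17B7, SC5D and DHCR7), STARD4, ACLY, ACSS2, ACACA, the elongases and desaturases ELOVL5, ELOVL6, SCD, FADS1 and FADS2, and ACSL1. The windows of 6 members, namely MVK, NSDHL, EBP, DHCR7, ACSS2 and ACACA, overlap the window of another coding gene.

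**Figure D3:**
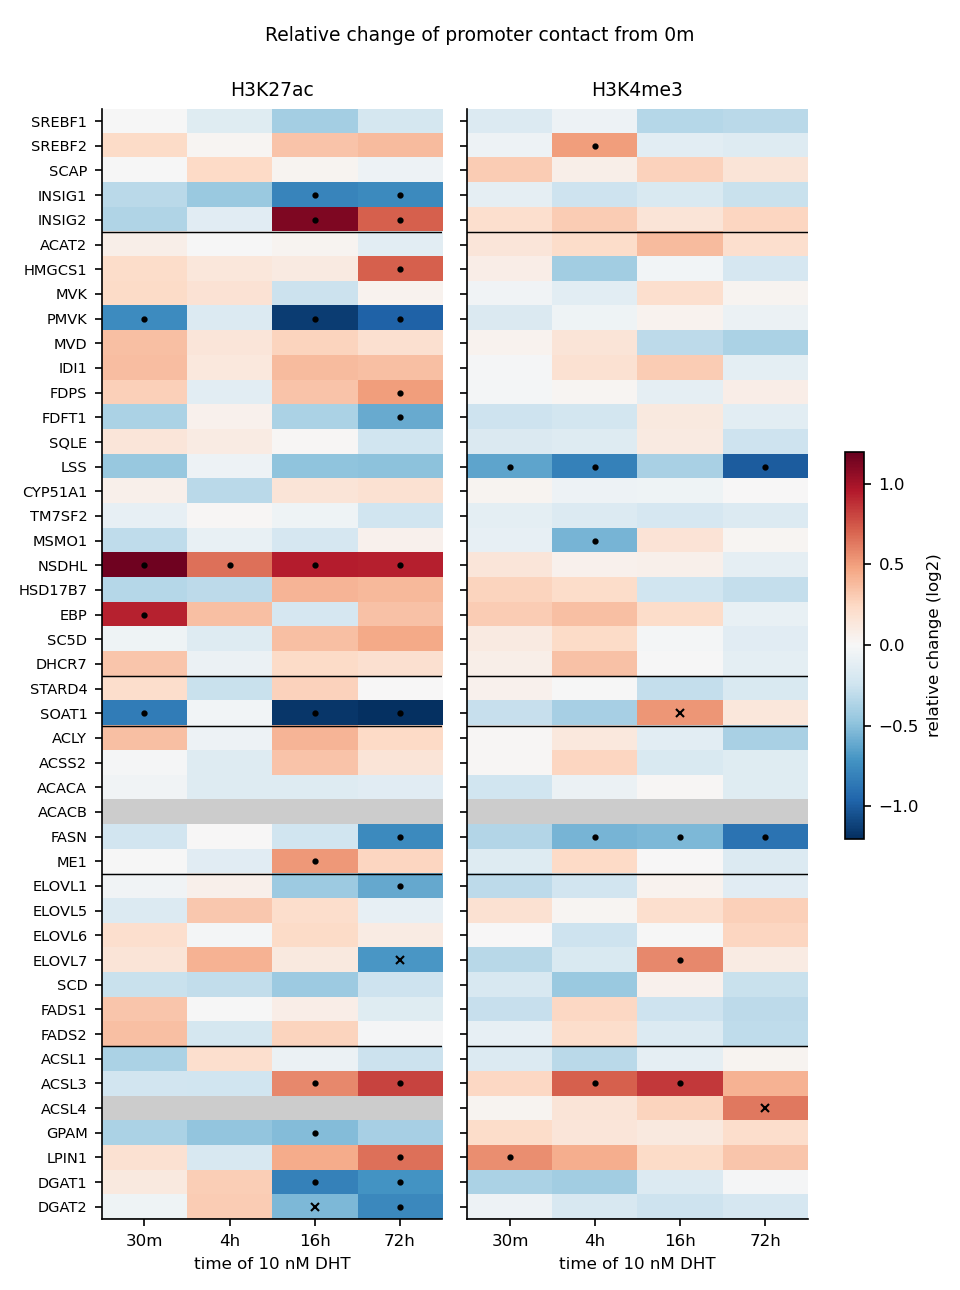
Relative change (log2) of each promoter from 0m for the 45 members by role (rows) and time of 10 nM DHT (columns), H3K27ac left and H3K4me3 right, with the colour scale ending at 1.2 in either direction and grey for promoters with under 100 read pairs. Dots mark calls whose 95% counting interval leaves out 0 and crosses mark the other calls; NSDHL is higher at all 4 times in H3K27ac, and FASN and LSS are lower at 3 times each in H3K4me3, of which the 4h and 16h calls of FASN were lost in other settings.

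Among the SREBP regulators, the paralogs INSIG1 and INSIG2, both of which retain the SCAP complex in the endoplasmic reticulum, were called in opposite directions in H3K27ac at 16h and 72h, but not before. Mean H3K27ac contact of INSIG2, which starts at chr2:118846047 on the plus strand, was 1.19, 1.19, 1.13, 3.08 and 2.29 from 0m to 72h. It stood near its 0m level to 4h, with relative changes of -0.36 (-0.67 to -0.04) at 30m and -0.14 at 4h, and was far higher at 16h, when its relative change was 1.12 (0.85 to 1.42). Its H3K4me3 contact was 2.15, 2.58, 3.14, 2.59 and 2.27 in time order, highest at 4h with a relative change of 0.31 (0.11 to 0.51). The 16h difference in H3K27ac lay mainly in 1 loop: with loops of at least 20 kb alone the relative change was 0.25.

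That loop, 5 kb long between neighbouring 5 kb bins, joined the INSIG2 promoter to an intergenic anchor upstream, at chr2:118842001-118843000. It held 73 read pairs at 0m and 378 at 16h, and 66.8% of the promoter's H3K27ac contact over the time course. Its contact was 21.5, 24.1, 18.2, 80.3 and 51.8 in time order, a log2 change of 1.90 (1.54 to 2.29) at 16h. The other 32 loops of INSIG2 changed by 0.26 (-0.21 to 0.74) at that time. In H3K4me3 the same loop changed by 0.18 (-0.18 to 0.54).

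INSIG1, at chr7:155089588 on the plus strand, had mean H3K27ac contact of 1.25, 1.19, 0.936, 0.781 and 0.820 from 0m to 72h. All 4 values under DHT were below that at 0m, and the relative changes were -0.32, -0.45, -0.79 (-1.15 to -0.44) and -0.76 (-1.14 to -0.39). H3K4me3 contact of INSIG1 was 1.89, 1.84, 1.91, 1.82 and 1.46, with relative changes between -0.10 and -0.27 that were not called. Its strongest loop, 5 kb long and ending within the gene, held 28 H3K27ac read pairs at 0m and 26 at 16h, a log2 change of -0.58 (-1.40 to 0.25).

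SREBF2, at chr22:42229109 on the plus strand, had mean H3K27ac contact of 2.44, 3.89, 2.70, 4.10 and 3.88 from 0m to 72h. Its relative changes of 0.23, 0.03, 0.34 and 0.38 stayed above 0 and under the threshold. In H3K4me3 it was 2.89, 2.82, 4.70, 2.83 and 2.21, and the 4h value alone was called higher at 0.50 (0.35 to 0.66). This call sits on the threshold and was lost in 4 of the 5 other settings, with 5 bins (0.49), no bins (0.48), every transcript start (0.41) and loops of at least 20 kb (0.36). The strongest loop of SREBF2, from the promoter into the gene over 5 kb, went from 101 H3K27ac read pairs at 0m to 343 at 16h, a log2 change of 1.29 (0.97 to 1.63), while its other 39 loops changed by 0.42 (0.19 to 0.66).

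SREBF1, at chr17:17740300 on the minus strand, had mean H3K27ac contact of 4.01, 5.41, 3.95, 4.00 and 4.25, and mean H3K4me3 contact of 1.39, 1.30, 1.57, 1.21 and 1.08. It was not called at any time, though all 8 relative changes lay below 0 and the lowest was -0.41 (-0.54 to -0.29) in H3K27ac at 16h. A 140 kb loop joined SREBF1 to an anchor in RAI1. It had the largest H3K27ac decrease at 16h among member loops with 50 or more read pairs at 0m and 16h together, -0.79 (-1.56 to -0.03). SCAP stood at 1.44, 1.81, 1.78, 1.66 and 1.59 in H3K27ac and at 2.47, 3.11, 2.99, 3.21 and 2.35 in H3K4me3. It was called in neither mark.

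Of the 18 genes of mevalonate and cholesterol synthesis, 1 was called higher and 1 lower at 16h in H3K27ac, where 13.9% and 16.5% of all promoters were. None was called in H3K4me3 at that time, beside 3.27% and 3.40%. NSDHL, the sterol dehydrogenase that helps remove methyl groups at C4, had mean H3K27ac contact of 0.262, 0.602, 0.413, 0.471 and 0.521 from 0m to 72h. Each value under DHT was above that at 0m, and the relative changes were 1.17 (0.68 to 1.72), 0.66, 0.94 and 0.93. The 0m value rests on 41 read pairs over 46 loops, and all 4 comparisons share it. Its window overlaps that of CETN2, so loops in the shared stretch cannot be told apart between these genes. H3K4me3 contact of NSDHL was 1.75, 2.03, 2.16, 2.0 and 1.51, with relative changes between -0.10 and 0.15.

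PMVK, the phosphomevalonate kinase, differed in the other direction in H3K27ac. Its mean contact was 1.35, 0.926, 1.22, 0.645 and 0.760 from 0m to 72h. All DHT values were lower than at 0m, and the relative change was -0.76 (-1.11 to -0.39) at 30m, -1.14 (-1.56 to -0.73) at 16h and -0.97 (-1.40 to -0.55) at 72h. H3K4me3 contact of PMVK was 0.731, 0.671, 0.866, 0.866 and 0.774, and its relative changes lay between -0.17 and 0.04. PMVK was among the few members whose strongest loop was long, 375 kb to the UBE2Q1 promoter.

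LSS, the synthase that closes squalene epoxide into lanosterol, was lower in H3K4me3. Its mean H3K4me3 contact was 2.47, 1.66, 1.68, 2.07 and 1.14 from 0m to 72h. Every DHT value was lower, by relative changes of -0.63 (-1.0 to -0.28), -0.81 (-1.06 to -0.55), -0.38 (-0.67 to -0.09) and -1.0 (-1.39 to -0.63). In H3K27ac LSS stood at 1.02, 0.865, 0.997, 0.768 and 0.802, relative changes of -0.45, -0.06, -0.49 and -0.49 that did not reach the threshold. MSMO1, the C4-methyl sterol oxidase, was lower in H3K4me3 at 4h alone, at -0.55 (-0.75 to -0.35), and stood at 2.85, 2.69, 2.23, 3.43 and 2.47.

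HMGCS1, the cytosolic HMG-CoA synthase that feeds the mevalonate pathway, had mean H3K27ac contact of 0.427, 0.546, 0.469, 0.459 and 0.738. It was called at 72h only, at 0.72 (0.19 to 1.28), on 45 read pairs at 0m and 87 at 72h. In H3K4me3 it stood at 2.02, 2.20, 1.79, 2.15 and 1.59 and was not called. EBP, the sterol isomerase, was higher in H3K27ac at 30m, 0.906 against 0.435 at 0m and a relative change of 0.92 (0.42 to 1.48), and was at 0.562, 0.377 and 0.585 later. FDPS, the farnesyl diphosphate synthase, was called higher at 72h at 0.50, and FDFT1, the squalene synthase, lower at -0.61. SQLE, the squalene epoxidase and a rate-limiting step, stood at 0.372, 0.418, 0.396, 0.350 and 0.325 in H3K27ac and at 1.29, 1.21, 1.38, 1.54 and 1.06 in H3K4me3. Neither series passed the threshold.

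MVD held the 3 member loops with the largest H3K4me3 decreases at 16h among those with 50 or more read pairs at both times together. The lowest was -1.19 (-1.90 to -0.50). This 45 kb loop to the CTU2 and RNF166 promoters went from 47 to 30 read pairs. The strongest MVD loop, of 5 kb, held 263 and 391 read pairs and changed by 0.03 (-0.20 to 0.26). The MVD promoter as a whole had a relative change of -0.31 in H3K4me3 and 0.26 in H3K27ac at 16h and was not called.

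SOAT1, which esterifies cholesterol for storage, was called in opposite directions in the marks at 16h. Its mean H3K27ac contact was 2.76, 1.98, 2.82, 1.44 and 1.11 from 0m to 72h. It was called lower at 30m (-0.83, -1.42 to -0.24), 16h (-1.17, -1.86 to -0.51) and 72h (-1.53, -2.36 to -0.77), while the 4h level matched that at 0m. These values rest on 47, 55, 66, 34 and 21 read pairs over 5 loops. Mean H3K4me3 contact was 1.35, 1.16, 1.24, 2.20 and 1.43, highest at 16h at a relative change of 0.53, whose interval of -0.16 to 1.30 holds 0. STARD4, a sterol carrier, was not called in either mark.

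In the branch from acetyl-CoA to palmitate, FASN had the strongest single loop of the module. Its mean H3K27ac contact was 27.2, 31.3, 29.6, 30.6 and 19.6 from 0m to 72h. The level was lowest at 72h, at a relative change of -0.76 (-0.96 to -0.56). H3K4me3 contact of FASN was 5.30, 4.17, 4.14, 3.83 and 2.31, highest at 0m, with relative changes of -0.35, -0.55, -0.54 (-0.96 to -0.11) and -0.89 (-1.46 to -0.36). The 4h call was lost with no minimum of read pairs (-0.49) and with loops of at least 20 kb (-0.38), and the 16h call with every transcript start (-0.29). FASN was the only member called lower in both marks at the same time, at 72h. How many of all promoters were called lower in both was not counted.

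The strongest FASN loop ran 5 kb from the promoter to chr17:80062001-80063000 within the neighbouring gene CCDC57. It made up 89.6% of the H3K27ac contact of the promoter and held 400 read pairs at 0m and 665 at 16h. Its contact was 118, 139, 133, 141 and 88.9 in time order, a log2 change of 0.26 (0.08 to 0.45) at 16h, while the other 4 loops changed by -0.64 (-1.19 to -0.09).

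ME1, at chr6:84140770 on the minus strand, had mean H3K27ac contact of 1.91, 2.45, 1.81, 3.33 and 2.67. It was highest at 16h, at a relative change of 0.52 (0.31 to 0.75), just past the threshold. Its strongest loop, 5 kb long and ending within the gene, accounted for 43.3% of its contact. That loop went from 76 read pairs at 0m to 296 at 16h, by 1.49 (1.12 to 1.88). The other 36 loops changed by 0.31 (0.03 to 0.60), beside a median change of 0.27 over promoters in the contact bin of ME1. H3K4me3 contact of ME1 was 1.10, 1.03, 1.53, 1.22 and 0.958, with no call. ACLY and ACSS2, which make acetyl-CoA from citrate and acetate, and ACACA, the cytosolic acetyl-CoA carboxylase, were not called, and ACACA stood at 1.18, 1.38, 1.08, 1.16 and 1.2 in H3K27ac and at 1.75, 1.55, 1.99, 1.93 and 1.46 in H3K4me3.

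**Figure D4:**
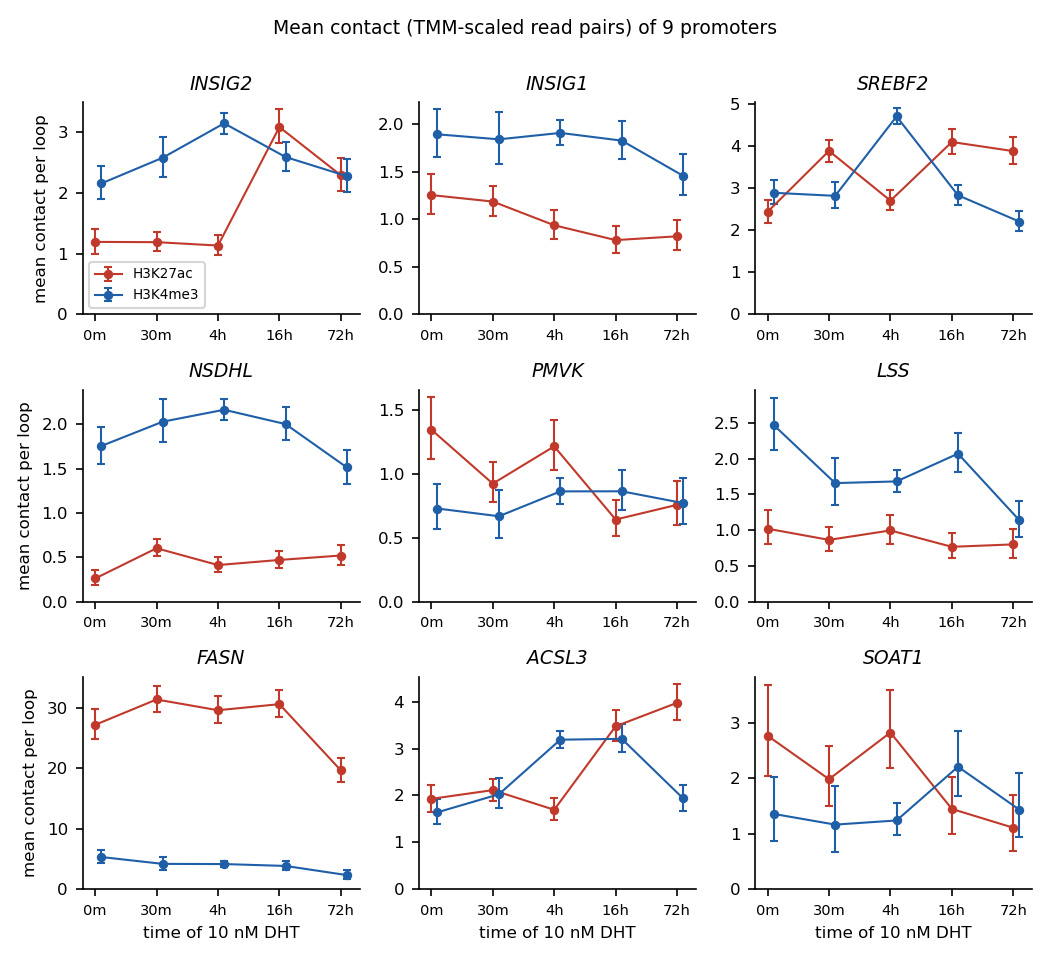
Mean contact per loop (TMM-scaled read pairs) of 9 promoters at each time of 10 nM DHT, H3K27ac in red and H3K4me3 in blue, with exact 95% counting intervals. INSIG2 is highest in H3K27ac at 16h (3.08) while INSIG1 is lowest there (0.781), and ACSL3 is above its 0m level in both marks at 16h.

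None of the 7 genes of elongation and desaturation was called in H3K27ac before 72h, where at most 13.9% of all promoters were called higher and 16.5% lower at any of these times. SCD, the stearoyl-CoA desaturase, stood at 1.59, 1.66, 1.36, 1.32 and 1.53 in H3K27ac and at 3.07, 2.73, 2.59, 3.40 and 2.17 in H3K4me3. Its relative changes reached -0.43 in H3K27ac at 16h and -0.45 in H3K4me3 at 4h, within the threshold. ELOVL7, an elongase of long saturated chains, was called higher in H3K4me3 at 16h, at 2.57 against 1.58 at 0m and a relative change of 0.57 (0.22 to 0.94). ELOVL1 was called lower in H3K27ac at 72h (-0.62), and ELOVL7 too (-0.69) with an interval that holds 0, beside 15.0% of all promoters. ELOVL5, FADS1 and FADS2 were not called, and the loop that joins the last pair held 75 H3K27ac read pairs at 0m and 188 at 16h, a change of 0.86 (0.46 to 1.26), but 143 and 182 in H3K4me3, a change of -0.20 (-0.52 to 0.13).

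ACSL3, which activates long-chain fatty acids and sits on lipid droplets, was the only member called higher in both marks at the same time. The share of all promoters called higher in both marks was not counted. ACSL3 starts at chr2:223725754 on the plus strand. Its mean H3K27ac contact was 1.93, 2.11, 1.69, 3.48 and 3.98 from 0m to 72h. H3K27ac contact was highest at the later 2 times, with relative changes of 0.58 (0.33 to 0.84) and 0.82 (0.56 to 1.08). H3K4me3 contact was 1.64, 2.02, 3.19, 3.21 and 1.93, so that it was already high at 4h and back near the 0m level at 72h. The relative changes in H3K4me3 were 0.25, 0.72 (0.48 to 0.98), 0.85 (0.59 to 1.13) and 0.42.

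The loops of ACSL3 changed more evenly than those of INSIG2. A 5 kb loop into the gene, to chr2:223732001-223733000, went from 25 H3K27ac read pairs at 0m to 99 at 16h, a log2 change of 1.52 (0.87 to 2.21), and from 17 to 73 in H3K4me3, a change of 1.56 (0.78 to 2.41). A 65 kb loop to an intergenic anchor upstream, at chr2:223662001-223663000, went from 24 to 95 H3K27ac read pairs, also 1.52 (0.86 to 2.23). Without its strongest loop the ACSL3 promoter still changed by 0.71 (0.43 to 0.99) in H3K27ac and by 0.88 (0.59 to 1.17) in H3K4me3.

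Of the 6 measured genes of acyl-CoA activation and glycerolipid synthesis, ACSL3 included, 1 was called higher and 3 lower in H3K27ac at 16h, beside 13.9% and 16.5% of all promoters. At 72h 2 were called in each direction, beside 13.1% and 15.0%. LPIN1, a phosphatidate phosphatase, stood at 2.78, 4.29, 2.64, 5.04 and 5.38, and was called higher at 72h at 0.66 (0.32 to 1.01). In H3K4me3 LPIN1 stood at 2.28, 3.42, 3.57, 2.86 and 2.45 and was called at 30m, at 0.56 (0.14 to 0.98), a call lost with loops of at least 20 kb (0.47). DGAT1 and DGAT2, unrelated enzymes that both complete triglycerides, were called lower at the later 2 times. DGAT1 stood at 1.12, 1.44, 1.40, 0.690 and 0.757 in H3K27ac and had a relative change of -0.81 (-1.37 to -0.25) at 16h. DGAT2 stood at 0.837, 0.918, 1.06, 0.573 and 0.513 and had relative changes of -0.54 (-1.11 to 0.02) at 16h and -0.77 (-1.41 to -0.17) at 72h. GPAM, the first acyltransferase of glycerolipid synthesis, was called lower at 16h at -0.52, and ACSL1 was not called. ACSL4, which prefers polyunsaturated fatty acids, was called higher in H3K4me3 at 72h at 0.63, on 23 read pairs at 0m and 41 at 72h and with an interval of -0.12 to 1.45 that holds 0.

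Of the members, 7 belong to the hallmark androgen response list that the study used, namely INSIG1, HMGCS1, IDI1, SCD, ELOVL5, FADS1 and ACSL3. In H3K27ac at 16h ACSL3 was called higher and INSIG1 lower, 1 of 7 in each direction beside 13.9% and 16.5% of all promoters, with a median relative change of 0.11 over the 7, beside 0.03 over the 36 other members measured. In H3K4me3 at 16h ACSL3 alone was called, beside 3.27% of promoters called higher, with medians of 0.05 and 0.00. Summed over loops, H3K4me3 contact of the 7 changed by 0.26 (0.18 to 0.34) at 16h. For the other members this change was 0.06 (0.03 to 0.10) and for all loops 0.14. In H3K27ac the 3 values at 16h were 0.29 (0.17 to 0.40), 0.29 (0.24 to 0.33) and 0.25. Summed H3K4me3 contact at 0m and 16h was 44.3 and 86.6 for ACSL3, 101 and 139 for IDI1 and 113 and 140 for ELOVL5. It was 62.6 and 66.5 for HMGCS1, 52.2 and 57.8 for SCD, 64.3 and 62.0 for INSIG1 and 102 and 92.6 for FADS1. IDI1, the isopentenyl diphosphate isomerase, stood at 0.639, 0.934, 0.712, 0.831 and 0.866 in H3K27ac, and its relative changes of 0.37, 0.13, 0.38 and 0.36 stayed under the threshold. ELOVL5 stood at 1.04, 1.09, 1.32, 1.30 and 1.08, and FADS1 at 1.76, 2.83, 1.84, 2.20 and 1.86.

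In H3K27ac the strongest loop of a member mostly had a higher log2 change than its other loops, about as often as over all promoters. The strongest loop was chosen by mean contact over all 5 time points, 16h included, so a loop that is high under DHT was more likely to be chosen, in members and in all promoters alike. It was 5 kb long in 27 of 45 members in H3K27ac and in 29 in H3K4me3, and it was the same loop in both marks in 37. It held a median of 26.1% of the H3K27ac contact of members with 5 or more loops, beside 27.8% over all promoters. At 16h the strongest loop had the higher change in 23 of the 28 members with at least 50 H3K27ac read pairs in each, with medians of 0.66 and 0.07. Over all such promoters this held in 81.3%, with medians of 0.61 and 0.11, and over these members in 82.1%. The shares of members and of all promoters were 71.0% and 72.4% at 30m, 64.0% and 68.1% at 4h, and 74.1% and 77.2% at 72h. At 16h the intervals were apart in 26.4% of all such promoters and in 9 members (32.1%), namely SREBF2, INSIG2, MVK, CYP51A1, TM7SF2, FASN, ME1, FADS1 and LPIN1.

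In H3K4me3 at 16h the strongest loop had the higher change in 33 of 40 members (82.5%), beside 63.3% of promoters, and at 4h in 34 of 42 (81.0%) beside 65.5%. At 72h the order turned, with the strongest loop above the others in 12 of 33 members (36.4%) beside 28.6%. Loops of TM7SF2 and MVD were the strongest of the module in H3K4me3, with mean contacts over time of 77.3 and 77.2. The TM7SF2 loop ran 5 kb to the ZNHIT2 promoter, with 304 read pairs at 0m and 428 at 16h and a log2 change of -0.05 (-0.27 to 0.17) in H3K4me3. In H3K27ac the same TM7SF2 loop held 200 and 437 read pairs and changed by 0.66 (0.41 to 0.91).

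Some long loops also differed. The sterol demethylase CYP51A1 had a 315 kb loop to the GATAD1 promoter that went from 14 H3K27ac read pairs at 0m to 54 at 16h, by 1.48 (0.61 to 2.44). Among H3K4me3 loops with 50 or more read pairs at 0m and 16h together, a sum that low loops reach more readily where they are high at 16h, the largest increases after that of ACSL3 were 1.17 (0.39 to 2.02) at ELOVL5 over 85 kb, 1.07 (0.20 to 2.02) at EBP over 10 kb to the PORCN promoter and 1.04 (0.10 to 2.07) at ELOVL6 within its own gene. In H3K27ac the 5 kb loop of SOAT1 changed by -0.69 (-1.45 to 0.05) and that of ELOVL1 to the CDC20 promoter by -0.49 (-0.96 to -0.02). The 5 kb loop of IDI1 to the WDR37 promoter held 95 and 231 H3K4me3 read pairs and changed by 0.74 (0.39 to 1.10), and that of DHCR7 to the NADSYN1 promoter by 0.16 (-0.12 to 0.44).

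**Figure D5:**
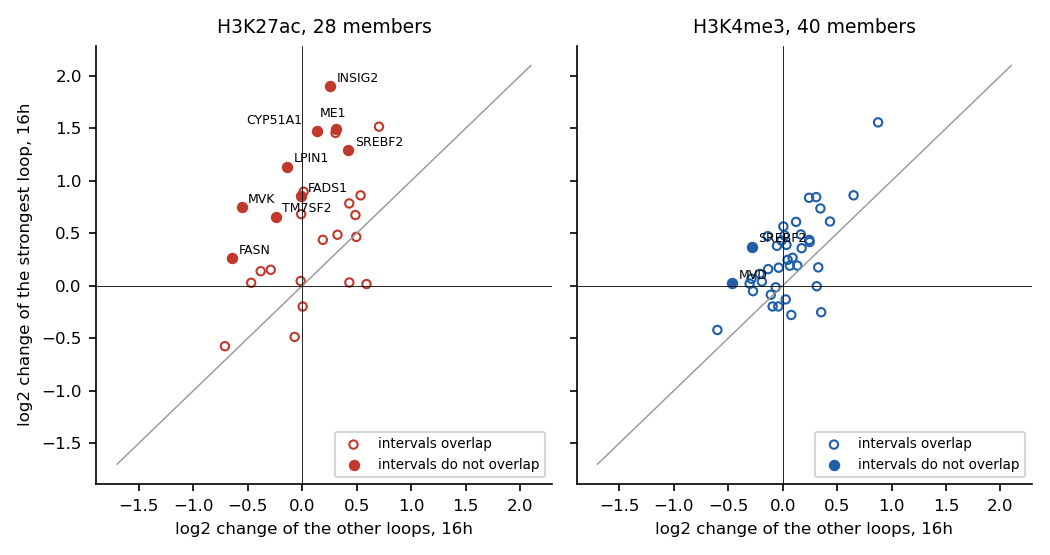
Log2 change from 0m to 16h of the strongest loop of a promoter (vertical) against that of its other loops together (horizontal), for members with at least 50 read pairs in each, H3K27ac left and H3K4me3 right, with a line of equal change. Filled points are members whose 95% intervals do not overlap; 23 of 28 members lie above the line in H3K27ac and 33 of 40 in H3K4me3.

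Related genes outside the module were read the same way. Of 20 genes of fatty acid oxidation, 18 were measured in H3K27ac, and at 16h none was called higher and 1 lower, with a median relative change of -0.04, where 13.9% of all promoters were higher and 16.5% lower. Of 14 genes of sterol efflux, uptake and the liver X receptor, 10 were measured, and 1 was called in each direction, beside the same shares of all promoters, with a median of 0.24. At 72h in H3K4me3 the medians were 0.05 and -0.01, beside -0.13 for the members.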

How the data were processed

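HiChIP libraries of LNCaP cells were processed by the authors. Per the labels, reads were trimmed with Trim Galore 0.5.0 and aligned to hg19 with Bowtie2 within HiC-Pro 3.1.0, and per the methods FitHiChIP called reference loops in 5 kb bins on the reads of all time points of a mark. The authors deposited 1 signal value per loop, mark and time point, scaled by TMM, and whether both H3K27ac replicates entered it is not given in the sources used here. All values (100%, tolerance 0.001) were whole multiples of 1 read pair, so counts were recovered by division. No count test was run, since each group has 1 value.

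Loops were counted once and assigned by an overlap of at least 1 bp. Changes of single promoters add 0.5 read pairs. Methods were tested on simulated data. Genes named in the text are the SREBP regulators, 5 rate-limiting enzymes, the androgen-list members, the highest 5 and lowest 3 by contact, and the 3 largest called changes per direction, mark and time. Loops named are the strongest, by mean contact over the 5 time points, and those of largest change at 16h. Other called genes were named after their values were seen. The members and lists were chosen with earlier results of these data known. The scripts ran under scipy 1.17.1 and pandas 2.3.3, with numpy 2.4.6 and Python 3.11.15. Some items searched for or measured are not reported here.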

Additional observations from a re-analysis of the deposited data

Results flagged for a closer look

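SOAT1 was the only member called in opposite directions in the 2 marks at the same time. At 16h its relative change was -1.17 in H3K27ac and 0.53 in H3K4me3. How often promoters at large were called in opposite directions in the marks was not counted. The difference between the marks was not tested, each value comes from a single table per time point, and the H3K4me3 value rests on 24 read pairs at 0m and 57 at 16h.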

How the results depend on the processing

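Of 302 values under other settings, 258 counted as the same, by a rule that differed between kinds of result. Set log2 changes had to stay inside the counting interval of the main value, as 29 of 48 did, and 1 reversed. Median relative changes had to stay inside the interval of the main median, as 31 of 32 did. Counts of called members had to stay close to the main count, as 65 of 80 did. Named members, picked because they were called, had to stay past the threshold, as 133 of 142 values did. The cause of the other values was not tested. With equal totals per library the set log2 changes in H3K27ac were 0.26, -0.0525, 0.0327 and 0.024 in time order, and in H3K4me3 0.0313 at 4h, -0.0359 at 16h (opposite in sign to the main 0.10) and -0.15 at 72h. With loops of at least 20 kb they were 0.28, -0.0502, 0.12 and 0.14 in H3K27ac, and 0.21 at 4h and -0.19 at 72h in H3K4me3. With every member weighing the same they were 0.28 at 30m, 0.15 at 16h and 0.10 at 72h in H3K27ac and 0.21 at 4h in H3K4me3. In H3K27ac at 16h, loops of the set of the same mark gave 0.34 and every transcript start 0.36. The median relative change in H3K27ac at 4h was 0.0504 with loops of at least 20 kb.

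Counts of called members were small and moved by up to 3 genes. With loops of at least 20 kb, 4 members were higher at 30m, 1 lower at 4h and 2 higher at 16h in H3K27ac, and in H3K4me3 0 were higher and 3 lower at 30m, 1 higher at 4h, 2 lower at 16h and 0 higher at 72h. With no bins, 1 was lower at 4h and 7 higher at 16h in H3K27ac, and 1 higher at 4h in H3K4me3. With no minimum of read pairs 2 were higher at 4h in H3K27ac. In H3K4me3 1 was higher at 4h with 5 bins and with every transcript start, and 0 lower at 16h with the latter. Of 142 values of named members 9 fell under the threshold, for SREBF2 (4), FASN (3), INSIG2 and LPIN1.

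No paired analysis was possible because the tables hold 1 value per mark and time point, so fits with a replicate block or with a replicate left out were not run. ACACB in both marks and ACSL4 in H3K27ac had under 100 read pairs and were not measured.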
